A study of Mus musculus with 90 samples.

Results

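C920025E04Rik is a gene of the major histocompatibility complex (MHC) on mouse chromosome 17. It was followed here beside 9 genes of the class I pathway, namely the heavy chain genes H2-D1, H2-K1, H2-T23, H2-T24, H2-Bl and H2-M3, the light chain gene B2m, and the peptide loading genes Tap1 and Tapbp. These 10 members were taken from 24422 genes in the count table. C920025E04Rik was picked by its measured values, which differed between genotypes in opposite directions in MII oocytes and 2-cell (2c) embryos, so its levels at those stages are described here without a test. The other 9 were chosen by gene family, with earlier results of these data known. Of the 10 members, 9 passed the filter on low counts, and H2-M3, which presents formylated peptides, had 0 counts in all 90 libraries.

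The libraries were single MII oocytes (collected 21–23 h after hCG), 2c embryos (45–47 h) and 8-cell (8c) embryos (71–73 h) of superovulated CD-1 mice, from wild type (WT) females or from females lacking Plag1, a zinc finger transcription factor. Oocytes were unmated. Embryos of both genotypes had WT fathers, so by the cross embryos labelled matPlag1KO lacked the maternal gene product and carried a paternal WT allele. The labels do not name the donor females, so donor and genotype cannot be told apart, and the p-values measure the spread between single oocytes or embryos. Sequencing read the 5′ end of each transcript with molecular identifiers, in 2 multiplex libraries (libA and libB) that each held every stage and genotype. These are called plates A and B here, and the positions in the labels are called wells. The paper names 3 occasions of collection, which the labels do not give. Kept were 16 of 16 WT and 14 of 16 matPlag1KO oocytes, 11 of 14 2c embryos of each genotype, and 15 of 15 WT and 11 of 15 matPlag1KO 8c embryos. The 78 kept libraries held 92475 to 2502421 gene counts (median 422526). Plag1 itself had 326 counts in the WT oocytes, in 16 of 16 libraries, and 4 counts in 3 of 14 matPlag1KO oocytes. At 2c it had 1 count in the 11 WT embryos and 91 counts in 9 of 11 embryos labelled matPlag1KO.

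Class I molecules carry peptides from inside the cell to its surface, where T cells and natural killer cells read them. A heavy chain pairs with B2m, the peptide is pumped into the endoplasmic reticulum by a transporter that includes Tap1, and Tapbp (tapasin) holds the empty molecule at that transporter. The classical heavy chains H2-K1 and H2-D1 are expressed by most adult cells, whereas H2-T23 encodes Qa-1, a nonclassical molecule read by natural killer receptors, and H2-Bl was named for the blastocyst. Preimplantation embryos are known for low class I levels, and the nonclassical Qa-2 molecule of the H2-Q genes is the form best known there.

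C920025E04Rik and H2-T23 lie near each other in the H2-T region and share most of the sequence before their start sites, which is printed because 5′-end tags are counted at these starts. In the coordinates of the files (mm9), C920025E04Rik covers chr17:36245975-36248621 and H2-T23 covers chr17:36166922-36169646, both on the minus strand. The stretches that align are chr17:36248635-36248871 before C920025E04Rik and chr17:36169647-36169879 before H2-T23, read 5′ to 3′ on the minus strand, with capitals at bases that differ from or are missing in the other.
C920025E04Rik: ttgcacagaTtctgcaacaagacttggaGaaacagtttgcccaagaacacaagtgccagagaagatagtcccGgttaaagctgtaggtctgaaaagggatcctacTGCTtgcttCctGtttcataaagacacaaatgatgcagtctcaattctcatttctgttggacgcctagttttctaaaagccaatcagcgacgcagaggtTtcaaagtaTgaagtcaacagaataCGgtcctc
H2-T23: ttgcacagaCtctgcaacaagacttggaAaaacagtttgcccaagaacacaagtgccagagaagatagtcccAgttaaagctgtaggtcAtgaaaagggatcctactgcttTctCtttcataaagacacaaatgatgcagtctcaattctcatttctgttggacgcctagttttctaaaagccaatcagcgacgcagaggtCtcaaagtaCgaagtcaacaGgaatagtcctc
The 237 and 233 bases aligned over 239 columns, of which 224 (93.7%) were identical, 7 were mismatches and 8 were gaps. The H2-T23 stretch ended at the start given in the files, and the C920025E04Rik stretch ended 13 bases before it.

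The similarity went on into the exons. Gencode calls C920025E04Rik a pseudogene, and H2-Bl a polymorphic pseudogene. Exon 1 of the C920025E04Rik-001 transcript (62 bases) matched the first exon region of H2-T23 at 98.4% with 1 mismatch, and no other place in the genome. Exons 2 and 3 (270 and 276 bases) were closest to H2-T23 too, at 96.3% and 94.2%, whereas exon 4 (276 bases) was closest to the H2-Q1 region, at 97.5%. Tags from one of these genes could be placed on the other, and the part of such placement in the results was not tested. H2-T23 and H2-T24 also lie inside A930015D03Rik, a gene on the plus strand (chr17:36131449-36175119), whose count was at least the sum of both in 90 of 90 libraries, so tags of the strands cannot be told apart in these counts. In Gencode, BC023719 on the plus strand (chr17:36169365-36254066) spans C920025E04Rik and H2-Bl, with no exon over theirs. Its first exon lies inside H2-T23 and its other exon inside H2-T10. The part of its tags in the counts of these genes was not tested. B2m (chr2:121973423-121978818) lies inside Patl2 on the opposite strand, and H2-D1 overlaps H2-L, whose count equalled that of H2-D1 in 26 of the 40 libraries with a count of either.

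Short motifs were searched on both strands in the 250 bases before the start of each gene, in 24321 windows of the whole annotation. The CCAAT box (CCAAT), bound by NF-Y, stood in 10 of 10 members and in 35.2% of all windows. In C920025E04Rik it began 66 bases and in H2-T23 52 bases before the start, within the aligned stretch. The core letters of the cAMP response element (TGACG) stood in 5 members (H2-D1, H2-K1, H2-M3, B2m and Tap1) and in 20.1% of windows. The kappa B letters GGGATTCCC stood in H2-D1 and H2-K1 and in 0.333% of windows. The interferon response letters GAAANNGAAA stood in H2-T23 (124 bases before the start, on the other strand) and B2m, and in 3.14% of windows. The aligned bases of C920025E04Rik differed from those of H2-T23 at 2 of 10 positions there (ttcctgtttc against tttctctttc). The TATA box (TATAAA) stood in H2-D1, H2-Bl and B2m and in 12.1% of windows. The PLAG1 consensus stood in 0 of 10 members and in 19.7% of windows. These are letter matches, not binding sites.

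C920025E04Rik was counted in 2 of the 6 groups, WT oocytes and embryos labelled matPlag1KO at 2c. WT oocytes held 581 counts, spread over 12 of 16 libraries. All 8 oocytes of plate A carried it, with 89, 33, 69, 112, 101, 51, 11 and 72 counts in wells A1 to A8. On plate B, wells B1 to B4 had 0 counts and wells B5 to B8 had 3, 11, 19 and 10. Each oocyte of plate A was above each oocyte of plate B in CPM (counts scaled to a common library size), with 38.1 CPM as the lowest on plate A and 37.04 CPM as the highest on plate B. The mean was 89.3 ± 39.27 CPM (SD, n = 8) on plate A and 13.99 ± 16.83 CPM (SD, n = 8) on plate B. At the depth of single oocytes, 3 counts stood for 1.132 to 11.34 CPM on plate A and 4.728 to 12.01 CPM on plate B. In the 14 matPlag1KO oocytes, 7 on each plate, it had 0 counts, which allows up to 0.27 CPM in the group as a whole (3 counts, counting error only).

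At 2c the order of the labels was the other way round. The Plag1 counts do not check these labels, since at 2c they too stood in the embryos labelled matPlag1KO (91 counts against 1), so the direction at 2c rests on the labels alone. The 11 WT embryos had 0 counts, which allows up to 1.481 CPM over the group. The 11 embryos labelled matPlag1KO had 55 counts, in 7 libraries. On plate A, wells D1, D6 and D7 had 2, 7 and 4 counts, and D2 and D8 had 0. On plate B, wells D5 to D8 had 3, 20, 13 and 6 counts, and D2 and D4 had 0. Both plates held such embryos. Plate A averaged 15.81 ± 19.13 CPM (SD, n = 5) and plate B 30.2 ± 31.2 CPM (SD, n = 6). Libraries set aside for low quality held none of its 636 counts.

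By 8c, C920025E04Rik had 0 counts in both genotypes, in 15 WT embryos (up to 0.4785 CPM over the group) and in 11 matPlag1KO embryos (up to 0.7889 CPM). Over the groups its mean was 51.64 ± 48.63 CPM (SD, n = 16; median 37.57) in WT oocytes and 23.66 ± 26.26 CPM (SD, n = 11; median 16.23) in embryos labelled matPlag1KO at 2c. These levels overlapped, from 0 to 160.0 and from 0 to 81.57 CPM, and the other 4 groups were at 0. Scaled to the added spike-in RNA, the WT level was at least 125-fold lower at 2c than in oocytes, and the matPlag1KO level was at least 24-fold higher at 2c than in oocytes. It was then at least 17.9-fold lower at 8c. Plag1 was likewise counted in all WT oocytes, at 32.82 ± 38.99 CPM (SD, n = 16), and in most embryos labelled matPlag1KO at 2c, at 35.85 ± 30.22 CPM (SD, n = 11).

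**Figure D1:**
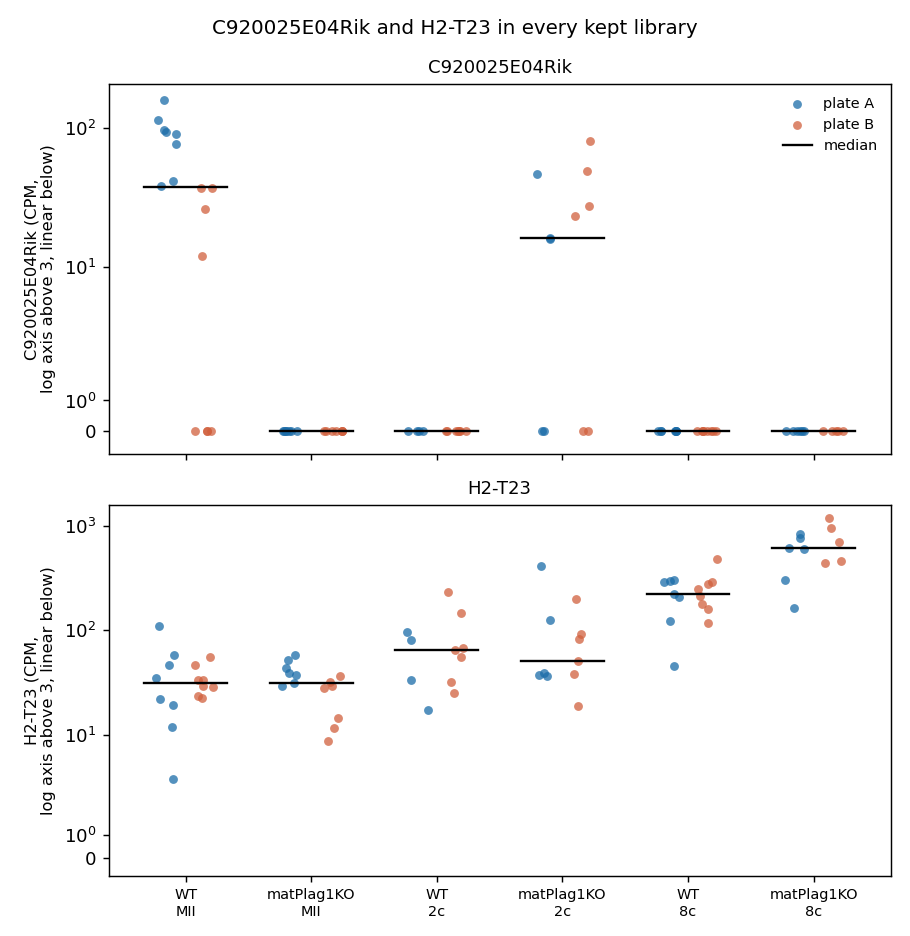
CPM of C920025E04Rik and H2-T23 in each kept library, by stage, genotype and plate (points, one per library; bars, group medians). C920025E04Rik stood above 0 only in WT oocytes (12 of 16) and in embryos labelled matPlag1KO at 2c (7 of 11), while H2-T23 was counted in every library shown and was highest in matPlag1KO 8c embryos (median 617.5 CPM).

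H2-T23, the near copy of C920025E04Rik, was counted in all 78 kept libraries and did not follow that pattern. It stood at 36.17 ± 24.69 CPM (SD, n = 16) in WT and 32.11 ± 14.08 CPM (SD, n = 14) in matPlag1KO oocytes. At 2c it stood at 77.63 ± 63.83 CPM (SD, n = 11) in WT and 103.2 ± 115.9 CPM (SD, n = 11) in matPlag1KO. At 8c it reached 231.6 ± 103.5 CPM (SD, n = 15) in WT and 643.3 ± 297.7 CPM (SD, n = 11) in matPlag1KO. Neighbours in this order overlapped at every step, and the difference between the 8c genotypes was called by the test given below. In WT oocytes, where C920025E04Rik differed between the plates, H2-T23 stood at 38.27 ± 34.04 CPM (SD, n = 8) on plate A and 34.08 ± 11.71 CPM (SD, n = 8) on plate B.

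Each tag marks one 5′ end, so counts of these genes do not scale with gene length and were put together as placed. Tags of the near copy or of the other strand cannot be told apart, so the shares are of placed counts. C920025E04Rik took 66.6% (95% exact binomial interval 63.4% to 69.8%) of the summed counts of both genes in WT oocytes and 20.7% (16.0% to 26.0%) in embryos labelled matPlag1KO at 2c. The plates differed in this share. In WT oocytes it was 73.8% (70.4% to 77.0%) on plate A and 30.1% (22.7% to 38.3%) on plate B, so the pooled share describes neither plate. In embryos labelled matPlag1KO at 2c it was 11.5% (6.27% to 18.9%) on plate A and 27.5% (20.6% to 35.2%) on plate B. The share was 0 in the other groups, with exact upper bounds of 1.11% in matPlag1KO oocytes and 2.41% in WT 2c embryos. These intervals cover counting error only. Every library with a count of C920025E04Rik also had one of H2-T23 (12 oocytes and 7 embryos). The summed level was 87.81 ± 65.28 CPM (SD, n = 16) in WT and 32.11 ± 14.08 CPM (SD, n = 14) in matPlag1KO oocytes. At 2c it was 77.63 ± 63.83 CPM (SD, n = 11) in WT and 126.9 ± 123.7 CPM (SD, n = 11) in matPlag1KO. The choice of C920025E04Rik fixes its part of these differences, and they are given without a test.

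Whether the maternal loss of Plag1 moved the class I pathway in oocytes was asked of the 8 tested members other than C920025E04Rik, with edgeR's quasi-likelihood test on TMM-scaled counts. None was called at an adjusted p under 0.05 over 16511 genes, of which 0.781% were called. At an unadjusted p under 0.05 there was 1 (Tap1, 4 counts in 1 WT oocyte and 0 in matPlag1KO), and DESeq2 called 0. Log2 differences (matPlag1KO minus WT) ran from -0.78 to 0.81, with adjusted p values of 0.325 and above. H2-T23 differed by -0.15 (SE 0.335, adjusted p = 1.0). B2m was at 14.28 ± 17.72 CPM (SD, n = 16) in WT and 20.47 ± 8.452 CPM (SD, n = 14) in matPlag1KO, a log2 difference of 0.47 (SE 0.382, adjusted p = 0.779). It was counted in 14 of 14 matPlag1KO oocytes but in 10 of 16 WT oocytes, 7 of 8 on plate A and 3 of 8 on plate B. With the well position as a replicate block and plate as a term, B2m was called higher in matPlag1KO oocytes (log2 difference 1.09, adjusted p = 0.0483), the 1 call among 5 members that passed the filter there, beside 792 calls over 12978 genes.

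At 2c, where C920025E04Rik was counted in embryos labelled matPlag1KO only, none of the other 8 members was called by edgeR, against 4.92% of all genes. None had an unadjusted p under 0.05, and DESeq2 called 0. The log2 differences ran from -1.46 (H2-K1, 1 count in WT and 0 in matPlag1KO) to 1.38 (H2-T24, 6 and 19 counts), and the lowest adjusted p was 0.356. For H2-T23 the difference was 0.39 (SE 0.396, adjusted p = 0.605). B2m stood at 27.04 ± 12.39 CPM (SD, n = 11) in WT and 17.67 ± 9.618 CPM (SD, n = 11) in matPlag1KO, a difference of -0.58 (SE 0.501, adjusted p = 0.532). The median over the 8 members was 0.08, beside 0.12 for all genes.

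In 8c embryos, 2 of the 8 members were called, both higher in matPlag1KO, where 1.74% of all genes were called in either direction and 1.21% higher. H2-T23 rose from a WT median of 221.5 CPM (45.37 to 482.8) to 617.5 CPM (164.0 to 1195.0). Of the matPlag1KO embryos, 7 of 11 lay above the highest WT embryo, and the lowest ones lay among the WT values. The log2 difference was 1.48 (SE 0.337, 2.78-fold, edgeR adjusted p = 0.00814). It held the same sign on each plate, with means of 213.7 ± 98.38 (SD, n = 7) against 550.5 ± 265.5 CPM (SD, n = 6) on plate A, and 247.3 ± 111.9 (SD, n = 8) against 754.6 ± 324.2 CPM (SD, n = 5) on plate B. Within a single plate the test did not pass the threshold, at a log2 difference of 1.33 on plate A (adjusted p = 0.439) and 1.63 on plate B (adjusted p = 0.0503). With any single 8c embryo left out, H2-T23 was called in 26 of 26 fits. A930015D03Rik, which spans it and which shares its tags, was called higher too, by 1.42 (adjusted p = 0.00125), and tags of H2-T23 and H2-T24 equalled 90.6% of its count in WT and 95.3% in matPlag1KO at 8c, against 12.6% in WT oocytes.

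H2-T24, a nonclassical heavy chain gene next to H2-T23, was the other. In WT 8c embryos it had 12 counts in 6 of 15 libraries, with a median of 0 and a highest value of 14.33 CPM. In matPlag1KO it had 57 counts in 8 of 11 libraries, with a median of 6.333 and a highest value of 51.98 CPM. The groups overlapped at 0 and at the low values, and the 4 highest libraries were matPlag1KO. The log2 difference was 2.75 (SE 0.685, 6.73-fold, adjusted p = 0.0187), with an adjusted p of 0.0623 by DESeq2. The call rested on few libraries: without the matPlag1KO embryo in well F6 of plate A (17 counts) the adjusted p was 0.0618, and without that in well F6 of plate B (16 counts) it was 0.0749. On plate A alone the difference was 1.73 (adjusted p = 0.694) and on plate B alone 3.98 (adjusted p = 0.0503).

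None of the other 6 tested members was called at 8c. H2-D1 stood at 38.2 ± 25.55 CPM (SD, n = 15) in WT and 27.33 ± 19.49 CPM (SD, n = 11) in matPlag1KO (log2 difference -0.46, SE 0.503, adjusted p = 0.735). H2-K1 stood at 6.038 ± 8.225 and 7.503 ± 17.77 CPM, and 19 of the 26 matPlag1KO counts came from 1 embryo (0.24, SE 0.714, adjusted p = 0.967). Without that embryo the H2-K1 difference was -1.41 (adjusted p = 0.374). H2-Bl had 81 counts in 10 of 15 WT and 27 counts in 5 of 11 matPlag1KO embryos (-0.79, SE 0.681, adjusted p = 0.662). B2m stood at 36.57 ± 11.74 and 38.42 ± 20.9 CPM (0.08, SE 0.405, adjusted p = 1.0). Tap1 had 3 counts in WT and 11 in matPlag1KO, a log2 difference of 2.13 (SE 0.742) that did not pass the threshold (adjusted p = 0.12). Without the WT embryo in well F2 of plate A (2 counts) the Tap1 difference was 2.78 and was called (adjusted p = 0.0446). Tapbp had 26 and 7 counts (-1.02, SE 0.793, adjusted p = 0.59).

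**Figure D2:**
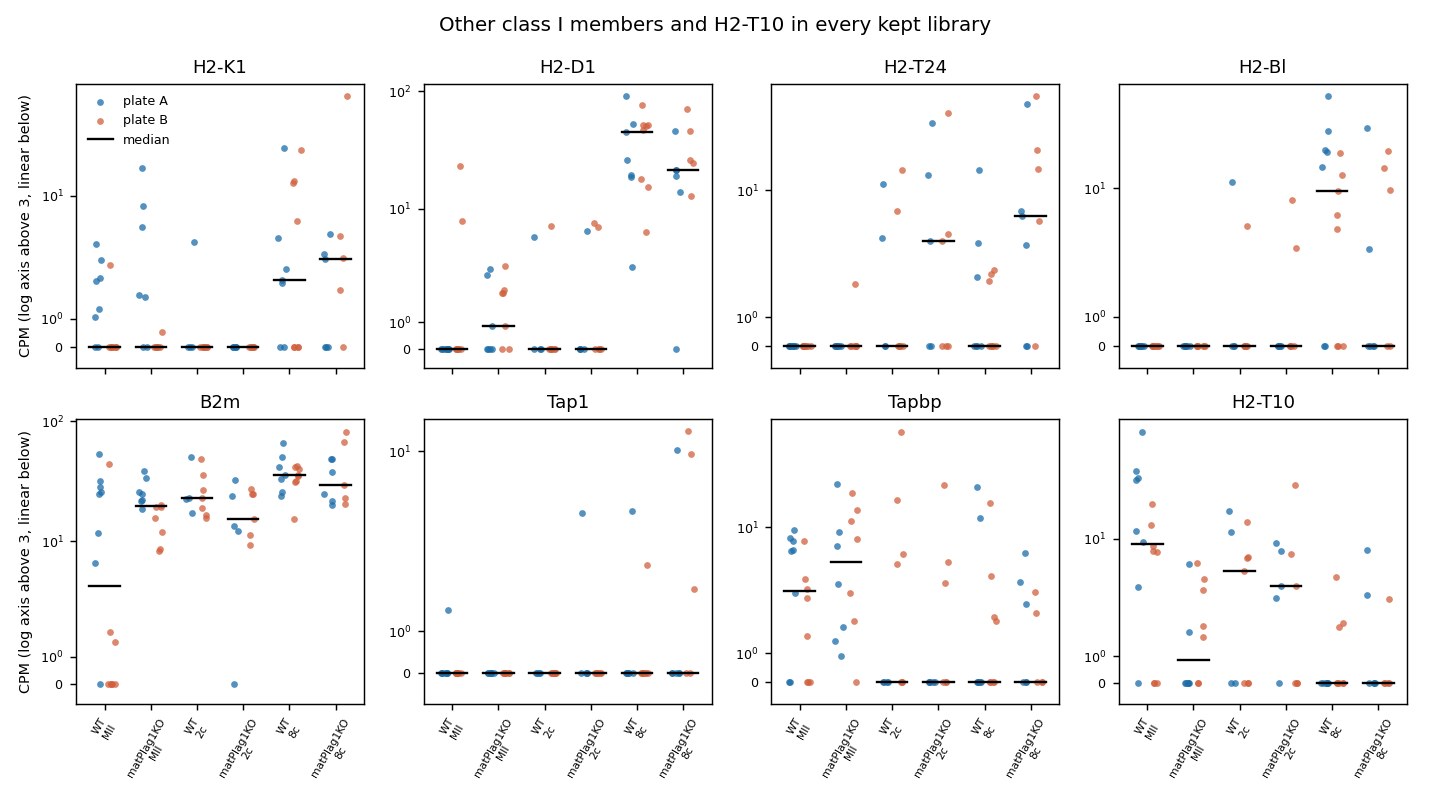
CPM per kept library of 7 class I members and H2-T10, by stage, genotype and plate (points, one per library; bars, group medians; the axis is logarithmic above 3 CPM and linear below). H2-D1, H2-K1 and H2-Bl were low or at 0 until 8c, H2-T24 reached its highest values in matPlag1KO 8c embryos (up to 51.98 CPM), B2m was present at every stage, and H2-T10 was highest in WT oocytes (median 9.067 CPM).

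**Figure D3:**
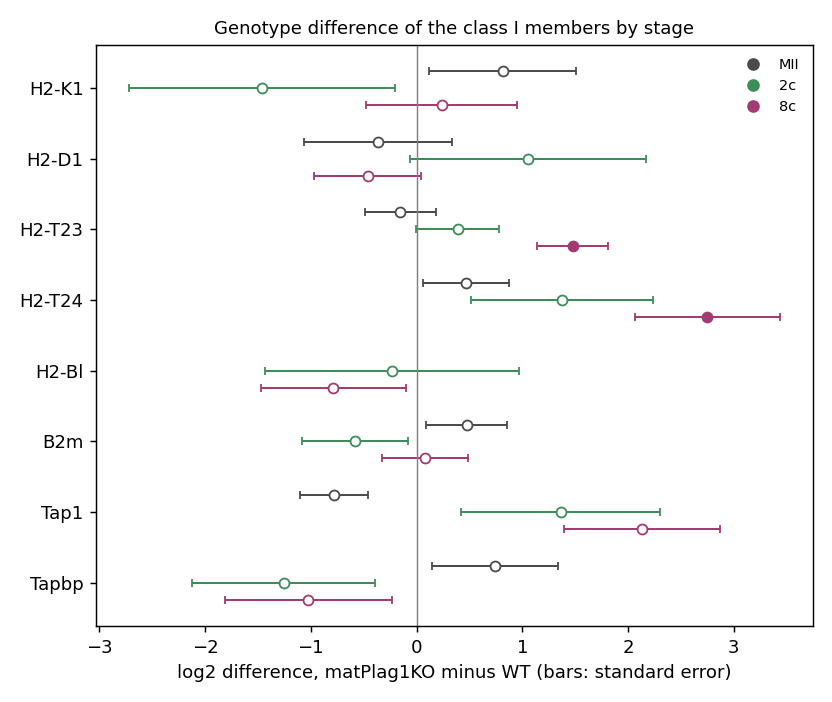
Log2 difference, matPlag1KO minus WT, of each tested class I member at MII, 2c and 8c (points; bars, standard error; filled where the adjusted p was under 0.05, open otherwise). The filled points are H2-T23 (1.48) and H2-T24 (2.75), both at 8c.

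Whether a genotype difference itself changed between stages was tested as a difference of differences. From MII to 2c, 0 of the 8 members were called, beside 3.31% of all genes, with 1 at an unadjusted p under 0.05 (Tap1, adjusted p = 0.208) and 0 by DESeq2. From 2c to 8c, 0 were called, beside 2.3% of all genes, with 1 at an unadjusted p under 0.05 and 0 by DESeq2. That was H2-T23, whose genotype difference was larger at 8c than at 2c by 1.09 (SE 0.521, adjusted p = 0.249). The H2-T23 difference was called at 8c and not at 2c, and these differences were not shown to differ from each other.

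All heavy chain members together summed to 39.2 ± 24.91 CPM (SD, n = 16) in WT and 35.98 ± 15.38 CPM (SD, n = 14) in matPlag1KO oocytes. At 2c the sum was 84.0 ± 66.82 CPM (SD, n = 11) and 115.0 ± 111.5 CPM (SD, n = 11). At 8c it was 289.7 ± 90.98 CPM (SD, n = 15) and 699.0 ± 295.0 CPM (SD, n = 11). Most of each sum was H2-T23. C920025E04Rik was not added to these sums.

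Changes between stages were read on the scale of the spike-in RNA, so that they follow RNA per oocyte or embryo. On this scale the median gene changed by -1.46 (WT) and -1.42 (matPlag1KO) between MII and 2c, and by 0.53 and 0.30 between 2c and 8c, in log2. A change below is the log2 change itself. Each genotype was tested on its own, and the comparisons of one genotype share their 2c libraries.

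From MII to 2c, 3 of 8 members were called in WT, where 65.4% of all genes were called, 14.1% higher and 51.3% lower. These WT calls were not stable: DESeq2 called 0 of the 8, a fit of only the compared groups 1 (H2-K1), plate A alone 1 (Tapbp) and plate B alone 0. H2-K1 fell by 2.50 (SE 0.998, adjusted p = 0.0236), from 19 counts to 1, a spike-in scaled ratio of 12.3 with a counting interval of 1.95 to 511. H2-T24 rose by 2.48 (SE 0.771, adjusted p = 0.004), from 0 counts to 6, which is at least 3.09-fold higher. H2-Bl rose with an adjusted p of 0.0483, from 0 counts to 3, too few for a fold. In matPlag1KO, 4 of 8 were called, where 63.8% of all genes were called, 13.5% higher and 50.3% lower. H2-K1 fell again, from 27 counts to 0 and at least 6.88-fold (adjusted p = 0.000625). B2m fell by 2.00 (SE 0.538, adjusted p = 0.000908) and Tapbp by 2.99 (SE 0.865, adjusted p = 0.00195). H2-T24 rose (adjusted p = 0.000491), from 1 count to 19, a ratio of 24.9 with a counting interval of 3.95 to 1030.

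H2-T23 was called in neither genotype over this step, at -0.28 (SE 0.386, adjusted p = 0.537) in WT and -0.19 (SE 0.391, adjusted p = 0.691) in matPlag1KO. Both changes were smaller than their errors, where the median gene fell. On TMM scaling, which sets most genes level, its change turned to 1.11 (adjusted p = 0.00764) and 1.65 (adjusted p = 9.22e-05), and the median of all genes moved to -0.03 and 0.14.

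From 2c to 8c, each called member rose. In WT 5 of 8 were called, all higher, where 48.1% of all genes were called, 31.9% higher and 16.2% lower. H2-D1 rose by 5.60 (SE 0.83, adjusted p = 1.99e-08), from 2 counts to 254, a ratio of 76.8 with a counting interval of 21.0 to 638. H2-K1 rose by 3.61 (adjusted p = 0.00214), from 1 count to 43, and H2-Bl by 3.57 (adjusted p = 0.0008), from 3 to 81. H2-T23 rose by 2.44 (SE 0.414, adjusted p = 6.38e-07). B2m rose 2.56-fold (adjusted p = 0.0245). In matPlag1KO 6 of 8 were called, all higher, where 48.6% of all genes were called, 29.1% higher and 19.5% lower. H2-T23 rose by 3.59 (SE 0.446, adjusted p = 8.51e-11), and H2-D1 rose by 4.13 (adjusted p = 4.36e-06). H2-K1 rose from 0 counts to 26, at least 8.85-fold (adjusted p = 0.000539). H2-Bl rose by 2.76 (adjusted p = 0.0111), B2m by 1.89 (adjusted p = 0.00332), and Tap1 from 1 count to 11 (adjusted p = 0.015). Tap1 was not called in WT (adjusted p = 0.152). H2-T24 was not called in either genotype, at 0.27 (SE 0.789, adjusted p = 0.815) in WT and 1.47 (SE 0.762, adjusted p = 0.103) in matPlag1KO, nor was Tapbp, at -0.06 and -0.08 (adjusted p = 0.98 and 0.976).

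Of the other class I heavy chain genes, 26 were in the table and 14 were tested. A single one was called between genotypes at any stage, where 0.781% (MII), 4.92% (2c) and 1.74% (8c) of all genes were called. H2-T10, on the same strand as C920025E04Rik at higher coordinates (chr17:36252816-36258389), was lower in matPlag1KO oocytes by a log2 difference of -2.89 (SE 0.586, adjusted p = 0.00152). WT oocytes held 226 of its counts (12 of 16 libraries) and matPlag1KO oocytes 25 (7 of 14 libraries), and like C920025E04Rik it stood higher on plate A (25.03 ± 24.93 CPM, SD, n = 8) than on plate B (7.138 ± 7.008 CPM, SD, n = 8) in WT. At 2c it had 11 counts in WT and 14 in matPlag1KO. From MII to 2c, 8 of these 14 genes were called higher and 2 lower in WT (14.1% and 51.3% of all genes), and 7 higher and 1 lower in matPlag1KO (13.5% and 50.3% of all genes). Among them were H2-Q9, one of the Qa-2 genes, at 2.94 in WT (adjusted p = 0.000374), and H2-T10, which fell by 3.48 in WT (adjusted p = 9.09e-05). H2-L, which overlaps H2-D1, rose from 2c to 8c in both.

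The other genes of peptide supply and loading (15 of 16 tested) held 1 call at 2c and 1 at 8c, where 4.92% and 1.74% of all genes were called. Hspa5, the chaperone BiP of the endoplasmic reticulum, was lower in matPlag1KO at 2c by a log2 difference of -2.16 (SE 0.444, adjusted p = 0.00178). Tapbpl, a second peptide editor related to tapasin, was higher in matPlag1KO at 8c by 2.18 (SE 0.554, adjusted p = 0.0213). From MII to 2c, 3 of the 15 were called higher and 6 lower in WT, with Calr at -3.49, Sec61a1 at -2.87 and Canx at -2.01, and in matPlag1KO 3 were higher and 7 lower. Over the same step 51.3% (WT) and 50.3% (matPlag1KO) of all genes were lower. From 2c to 8c, 7 were higher and 0 lower in WT (31.9% and 16.2% of all genes), and 6 higher and 2 lower in matPlag1KO (29.1% and 19.5% of all genes). Median changes of the list were -0.62 and -1.15 over the earlier step and 1.18 and 0.87 over the later one, beside the medians of all genes given above.

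Of the transcription factors and receptors that act on class I promoters, 21 of 22 were tested, and 2 were called between genotypes, both at 2c, where 4.92% of all genes were called. Irf7, an interferon regulatory factor, was higher in matPlag1KO (3.13, SE 0.965, adjusted p = 0.0431), and Rfxank, a subunit of the RFX complex, was lower (-0.98, SE 0.311, adjusted p = 0.0472). From MII to 2c, 3 of the 21 were called higher and 8 lower in WT (14.1% and 51.3% of all genes), and 3 higher and 11 lower in matPlag1KO (13.5% and 50.3% of all genes). Rela fell by 4.21 in WT (adjusted p = 6.46e-10), and Nfya, a subunit of NF-Y, fell by 3.09 (adjusted p = 1.6e-07). From 2c to 8c, 2 were higher and 3 lower in WT (31.9% and 16.2% of all genes), and 5 higher and 5 lower in matPlag1KO (29.1% and 19.5%). Of the class I-like genes outside the complex, 4 of 7 were tested and 0 were called between genotypes. The shares of all genes were 0.781% (MII), 4.92% (2c) and 1.74% (8c), and 0 of 4 lies near them. Fcgrt, the neonatal Fc receptor, which also pairs with B2m, rose from MII to 2c by 2.06 in WT (adjusted p = 0.00472) and 3.71 in matPlag1KO (adjusted p = 3.16e-05).

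The labelled material was checked against markers of the stages and of cells that surround oocytes or present antigen. Of 11 tested genes of class II and antigen-presenting cells, 0 were called between genotypes at any stage. Of 8 tested cumulus and granulosa genes, 0 were called. Of all genes, 0.781% (MII), 4.92% (2c) and 1.74% (8c) were called, so 0 calls in lists this short lies near those shares. At 8c, 11 (WT) and 10 (matPlag1KO) of the 14 listed class II and antigen-presenting genes had counts. Ptprc, H2-Ob and Lyz2 were at 0 in both genotypes. The list sum ran from 29.03 to 287.9 CPM in WT and from 74.72 to 125.3 CPM in matPlag1KO at 8c. In oocytes it ran from 2.6 to 686.0 CPM (median 25.41) in WT and from 19.04 to 63.99 CPM (median 44.98) in matPlag1KO. Of the 16 listed cumulus and granulosa genes, 9 had counts in oocytes of each genotype. Ptx3, Tnfaip6, Ptgs2, Amh, Foxl2 and Fst were at 0 in oocytes of both genotypes. The cumulus sum in oocytes ran from 8.01 to 48.86 CPM in WT and from 8.678 to 47.55 CPM in matPlag1KO. At 8c the cumulus sum, led by Gja1, ran from 340.6 to 2822 CPM in WT and from 156.7 to 1232 CPM in matPlag1KO. In each genotype 6 of these 16 genes had counts at 8c, and Has2, Ptx3, Fshr and Lhcgr were at 0 in both. All 12 oocyte markers fell from MII to 2c (51.3% and 50.3% of all genes in WT and matPlag1KO), and 7 (WT) and 8 (matPlag1KO) of 8 tested 2-cell markers rose (14.1% and 13.5%). From 2c to 8c, 11 of 11 8-cell markers rose in both (31.9% and 29.1%), so the changes over these steps ran with the stage labels. The 8-cell list was also high in oocytes, with sums of 2581 to 11520 CPM in WT against 7133 to 14840 CPM in WT at 8c. Its sum thus did not set 8c apart from MII. Between genotypes at 8c, 3 of 11 tested 8-cell markers (Cdx2, Krt8 and Krt18) were called lower in matPlag1KO. Of all genes at 8c, 1.74% were called in either direction, 1.21% higher and the rest lower. H2-T23 and H2-T24 were higher at this stage, and the part of the marker difference in theirs was not tested. Other stage lists held genotype calls too. In matPlag1KO oocytes, 1 of 12 oocyte markers was called higher. Among matPlag1KO 2c embryos, 1 oocyte marker and 1 of 8 tested 2-cell markers were called higher. For 8c embryos the oocyte list gave 1 call in each direction.

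Within 500 kb of C920025E04Rik, 42 other genes were listed and 30 were tested. In oocytes 0 were called higher and 1 lower (H2-T10), beside 0.781% of all genes. At 2c Ppp1r18 was higher (4.62, adjusted p = 0.0319) and Mrps18b lower (-1.20, adjusted p = 0.0468) in matPlag1KO, beside 4.92% of all genes, and at 8c A930015D03Rik was higher, beside 1.74%. With H2-T10 as the 1 call in oocytes, opposite calls at MII and 2c were possible for that gene alone, and it was not called at 2c. For the other neighbours the calls cannot answer whether they shared the pattern by which C920025E04Rik was picked.

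Across the 78 kept libraries, the 5 of 16510 genes whose log2(CPM + 1) ran most like that of C920025E04Rik were Spsb3 (Pearson r = 0.639), Slc6a11 (0.605), Cd5 (0.589), Gm16063 (0.569) and 4930515G01Rik (0.569). These values describe libraries that share stages and genotypes, and C920025E04Rik was at 0 in most of them. Spsb3, also on chromosome 17 (chr17:25023619-25029092), had 205.9 ± 105.4 CPM (SD, n = 16) in WT and 99.75 ± 40.03 CPM (SD, n = 14) in matPlag1KO oocytes. At 2c it had 86.29 ± 45.93 CPM (SD, n = 11) in WT and 266.5 ± 190.2 CPM (SD, n = 11) in matPlag1KO. At 8c it was low in both, at 25.88 ± 11.33 (SD, n = 15) and 29.52 ± 10.69 CPM (SD, n = 11). Plag1 had r = 0.439 (rank 217) and H2-T10 r = 0.514 (rank 25). The class I members lay from 0.02 (Tapbp) down to -0.41 (H2-D1), with H2-T23 at -0.29 and B2m at -0.29.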

How the data were processed

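Single MII oocytes, 2c and 8c embryos of WT and maternal Plag1 knockout mice were profiled by 5′-end sequencing with molecular identifiers and added ERCC spike-in RNA. The authors aligned reads to mm9 with TopHat and counted them per UCSC gene with HOMER, per the paper's methods and the submitters' processing notes, and the deposited values are whole-number counts per gene. The strand setting of the counting is not given in the sources used here. The table held 24422 genes and 92 spike-ins.

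Libraries with a median CPM of at least 1 over expressed genes were kept (78 of 90). The 16511 genes that reached 1 CPM in 5 or more kept libraries were tested with edgeR 4.0.16 (glmQLFit, glmQLFTest) in R 4.3.3, in one fit over the 6 groups with no covariate, with Benjamini-Hochberg adjustment over all tested genes and a threshold of 0.05. Genotype comparisons used TMM factors, and stage comparisons used spike-in totals as library sizes. CPM was computed on TMM library sizes, and depth limits a group at 0 counts to the level of 3 counts. Alternatives were DESeq2 1.42.0, other scalings and filters, plate as a term, single plates, a well block, and each 8c library left out in turn, the last chosen after seeing the data. The scripts were tested on simulated data. Sequences were read from the mm9 genome and compared with BLAST+ 2.17.0 and Biopython 1.88. The annotation of transcripts came from Gencode.

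Members and gene lists were chosen with earlier results of these data known. Named are all members, listed genes and neighbours within 500 kb called in a genotype comparison or, per list, up to 4 with the highest mean CPM, and the 5 genes most correlated with C920025E04Rik. Both plates used the same well positions. In MII oocytes 14 wells held one library of each genotype, and the correlation of their deviations over 8418 genes ran from -0.0562 to 0.759 around group means and from 0.148 to 0.782 around the means of group and plate, the scale of the block fit. On the latter scale every pair was above 0.1, and the blocked value is given beside the oocyte comparison.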

Additional observations from a re-analysis of the deposited data

Results flagged for a closer look

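A few results were marked for a closer look because a genotype difference itself changed between stages, past the 0.05 threshold on the adjusted p of edgeR over 16511 genes. For Hspa5, an endoplasmic reticulum chaperone, the genotype difference (log2, matPlag1KO minus WT) at 2c lay below that at MII by a difference of -3.4 (adjusted p = 3.27e-05). At 8c it lay above that at 2c by 1.98 (adjusted p = 0.0434). For Irf7 the difference at 8c lay below that at 2c by -5.0 (adjusted p = 0.0284). For A930015D03Rik, which spans H2-T23 and H2-T24 on the opposite strand, the difference at 8c lay above that at 2c by 2.12 (adjusted p = 0.00254). Tags of H2-T23 and H2-T24 together equalled 30.7% (WT) and 66.7% (matPlag1KO) of its 2c count, and 90.6% (WT) and 95.3% (matPlag1KO) of its 8c count. The counts left over were 355 in WT against 115 in matPlag1KO among 2c embryos, then 144 against 123 among 8c embryos. The class I members themselves had 0 calls in this test.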

How the results depend on the processing

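Over the counts of class I members called, 108 of 121 alternatives stayed within 1.5 times the value given, and 13 moved. At 8c, DESeq2 called 1 (H2-T23), and plate A alone and plate B alone each called 0, beside 6 and 46 calls over all genes. With each 8c library left out in turn the count ran from 1 to 3, with 2 in 23 of 26 fits. From MII to 2c in WT, DESeq2 called 0, the groups compared alone 1 (H2-K1), plate A alone 1 (Tapbp) and plate B alone 0, so the WT calls of that step are the least stable. In matPlag1KO, plate B alone called 1 (Tapbp). From 2c to 8c, plate A alone called 2 (H2-T23 and H2-D1) in each genotype. With the replicate block on wells, the oocyte count was 1 (B2m) in place of 0, and at 2c, where 2 of 8 paired wells held both genotypes (6 residual degrees of freedom, correlations from -0.128 to 0.212), it was 0 of 4 members. At 8c no paired analysis was possible because 0 of 12 paired wells held both genotypes. Of the single members, 592 of 631 values kept their side of the threshold, 34 lost the call and 3 gained it. Another 2 reversed, the H2-T23 change from MII to 2c on TMM factors (1.11 in WT and 1.65 in matPlag1KO). Direction was compared only where either fit made a call, so values called in neither may have changed sign. Of all genes, 129 were called at MII (from 46 to 792 over the alternatives), 812 at 2c (from 0 to 1177) and 287 at 8c (from 6 to 395). The causes were not tested. Depth limits the 2c libraries most: 3 counts in one of them stood for 9.748 to 23.91 CPM.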
